A study of Mus musculus with 8 samples.

Results

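The genes Htr1b, Htr1d, Htr2a, Htr2c, Htr4, Htr6 and Htr7 encode 7 receptors for serotonin, and their nuclear RNA was followed through the cell clusters and inbred strains of a mouse striatum data set. They were taken by symbol from the expression matrices, 7 of 32285 genes, and all 7 were found. The striatum, a forebrain region of movement and reward, was taken from 32 mice aged 12 weeks, 4 of each of the strains WSB/EiJ, CAST/EiJ and PWK/PhJ, which were derived from wild mice, and NOD/ShiLtJ, NZO/H1LtJ, A/J, 129S1/SvImJ and C57BL/6J. The labels name no transgene and no treatment. Frozen tissue gave nuclei that were pooled in 4 batches, each with 1 mouse of every strain, and read with the 10x Multiome assay, which measures nuclear RNA and open chromatin in the same nucleus. The deposited table of nuclei writes C57BL/6NJ for the strain that the labels call C57BL/6J, and NZO/HlLtJ for their NZO/H1LtJ. The labels' names are used here. Per the design text a batch held 4 males and 4 females, but the sex of single mice was not used here. The part of sex in a strain difference, above all in the X-linked Htr2c, was therefore not tested.

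Serotonin reaches the striatum along axons from the raphe nuclei of the brainstem and acts there on receptors that couple to different G proteins. Htr1b and Htr1d encode receptors coupled to Gi/o, which lower cyclic AMP and often sit on axon terminals. Htr2a and Htr2c encode receptors coupled to Gq, which activate phospholipase C. The products of Htr4, Htr6 and Htr7 couple to Gs and raise cyclic AMP. Most striatal neurons are GABAergic projection neurons of 2 kinds, marked by the dopamine receptor genes Drd1 and Drd2, beside sparse interneurons, of which the cholinergic ones express Chat. Nuclear RNA holds newly made and partly unspliced transcripts, so its level is not that of receptor protein on distant terminals.

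In RefSeq's annotation of GRCm38.p6, windows of 250 bases before a start were examined for 6 members, with 2 starts each for Htr1d and Htr6. Over all 32851 such windows in the RefSeq table, 16995 (51.7%) overlapped an accessible region of the authors' deposited index and the median window held 6 CpG dinucleotides, the sites of DNA methylation. Both windows of Htr6 (9 and 23 CpG), the window of Htr2c (5 CpG), that of Htr7 (41 CpG) and that of the downstream start of Htr1d (20 CpG) overlapped an accessible region. The windows of Htr1b (6 CpG), Htr2a (4 CpG) and the upstream start of Htr1d (6 CpG) did not, and the nearest regions were 457, 937 and 1050 bases away. Windows of 5 receptors whose levels differed between clusters or strains below are given 5′ to 3′ on the gene's strand, with each CpG in capitals, to show that the start of Htr7 holds the most CpG of the windows examined, ahead of those of Htr6 (upstream start) and Htr1d (downstream start), and that the Gq-coupled pair differs in accessibility at similarly few CpG.
Htr2c, chrX:146962263-146962512, plus strand, accessible: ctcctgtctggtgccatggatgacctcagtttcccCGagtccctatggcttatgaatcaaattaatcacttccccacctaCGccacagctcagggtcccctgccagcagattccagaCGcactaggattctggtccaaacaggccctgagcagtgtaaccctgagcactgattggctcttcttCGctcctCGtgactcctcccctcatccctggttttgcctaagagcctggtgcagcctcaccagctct
Htr2a, chr14:74640624-74640873, plus strand, not in an accessible region: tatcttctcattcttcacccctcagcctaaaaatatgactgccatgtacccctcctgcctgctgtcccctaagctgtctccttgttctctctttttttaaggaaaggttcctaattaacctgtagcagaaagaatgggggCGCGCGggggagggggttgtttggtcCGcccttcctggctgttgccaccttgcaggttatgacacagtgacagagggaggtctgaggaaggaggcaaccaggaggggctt
Htr7, chr19:36057361-36057610, minus strand, accessible: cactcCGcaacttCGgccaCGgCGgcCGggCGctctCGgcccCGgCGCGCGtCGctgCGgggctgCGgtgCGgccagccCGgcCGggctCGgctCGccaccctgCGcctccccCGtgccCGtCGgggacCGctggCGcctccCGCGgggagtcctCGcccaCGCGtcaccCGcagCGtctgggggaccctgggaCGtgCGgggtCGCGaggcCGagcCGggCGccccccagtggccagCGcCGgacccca
Htr1b, chr9:81633833-81634082, minus strand, not in an accessible region: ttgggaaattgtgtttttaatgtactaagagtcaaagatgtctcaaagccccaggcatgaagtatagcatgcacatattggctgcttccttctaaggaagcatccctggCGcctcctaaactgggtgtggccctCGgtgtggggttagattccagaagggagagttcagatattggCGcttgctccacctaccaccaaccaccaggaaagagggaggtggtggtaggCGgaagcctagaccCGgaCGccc
Htr1d, downstream start, chr4:136424362-136424611, plus strand, accessible: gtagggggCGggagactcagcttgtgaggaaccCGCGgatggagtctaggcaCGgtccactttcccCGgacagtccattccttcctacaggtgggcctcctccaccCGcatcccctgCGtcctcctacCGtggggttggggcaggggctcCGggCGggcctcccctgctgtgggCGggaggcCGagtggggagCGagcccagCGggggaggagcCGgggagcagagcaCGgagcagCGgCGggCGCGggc
A window is labelled accessible where any part of it overlaps a region. The Htr1d window does so only at its 3′ end, from base 136424580 on. These windows are a description of the reference sequence of the C57BL/6 strain, and the sequences of the other strains were not used here.

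The authors' annotation kept 55672 nuclei in 18 clusters, 11826 to 15626 per batch, with 43538698 to 77698312 counts of unique molecular identifiers (UMIs, single captured RNA molecules). Median depth per nucleus was 3232 to 4931 UMIs, and batch 3 was the shallowest. Drd1+ neurons (15395 nuclei) and Drd2+ neurons (13203 nuclei) were the largest clusters. Their names were checked against 5 markers each. Drd1 and Pdyn were highest in Drd1+ neurons at 219 and 52.5 counts per 1e+06 counts (CPM), but the other 3 peaked elsewhere: Tac1 in the second Drd1+ cluster (612 CPM against 310 in Drd1+ neurons), Isl1 in Chat+ interneurons (143 against 23.6) and Ebf1 in mural cells (1225). The summed level of the 5 was 987 CPM in Drd1+ neurons against 72.3 in Drd2+ neurons, but it was higher still in mural cells (1487) and endothelium (1125). Of the Drd2+ markers, Drd2, Adora2a, Penk and Gpr6 were highest in Drd2+ neurons (Drd2 at 437 and Adora2a at 166 CPM) and Sp9 in the cluster called Unknown (86.1 CPM), and the 5 summed to 1829 CPM in Drd2+ neurons, above every other cluster. The second Drd1+ cluster (1506 nuclei, named Drd1+ neuron_2 by the authors) was highest for Otof, Casz1, Tshz1, Col11a1 and Pcdh8, and the Chat+ interneurons (120 nuclei) were highest for Chat and Slc5a7. In the cluster that the authors called Unknown_2 (57 nuclei), the choroid plexus markers Ttr, Folr1 and Kl summed to 36341 CPM. Of 54141 barcode sequences of annotated nuclei, 1517 occurred in more than 1 batch.

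In the RefSeq annotation of GRCm38.p6 the members lie at chr9:81628291-81633832 (Htr1b), chr4:136423522-136444405 (Htr1d), chr14:74640874-74706859 (Htr2a), chrX:146962464-147197277 (Htr2c), chr18:62323546-62503027 (Htr4), chr4:139059706-139075570 (Htr6) and chr19:35958415-36058133 (Htr7). The authors' deposited index of accessible regions places 30 regions inside Htr4, 11 inside Htr2a, 10 inside Htr7, 7 inside Htr2c, 5 inside Htr6, 4 inside Htr1d and 1 inside Htr1b. 3 of the members share their place with other annotated genes: Htr1b overlaps D430036J16Rik, Htr4 overlaps Gm18653 and Gm36316, and Htr2c overlaps 8 small RNA genes. The sources used here do not state whether counting used strand, so reads of these genes and of their overlapping partners cannot be told apart.

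Levels by cluster are CPM of all nuclei of a cluster in a batch, given as the mean ± SD of the 4 batches, each a pool of 8 mice. They are compared within a gene only, since nuclear counts were not scaled to gene length. The receptors differed in their patterns. Htr4 was highest in Drd2+ neurons, while Htr2c was highest in Unknown_2 and high in both main projection neuron clusters. Htr1b and Htr2a were near equal in the 2 main projection neuron clusters. Htr1d was highest in the second Drd1+ cluster, Htr7 was highest in interneurons, and Htr6 was low throughout.

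Among the Gi/o-coupled receptors, Htr1b was highest in Drd1+ neurons at 27.2 ± 3.29 CPM and in Drd2+ neurons at 26.7 ± 3.01 CPM (n = 4 batches), whose ranges overlapped. It followed in mural cells, 31.6, 13.8, 11.6 and 10.6 CPM in batches 1 to 4, and in endothelium at 14.3 ± 4.71 CPM. The second Drd1+ cluster held 8.38 ± 1.74 CPM and oligodendrocytes 4.35 ± 1.81 CPM. Every neighbour in the order of Htr1b overlapped the next by its range. Htr1d gave another order, led by the second Drd1+ cluster at 21.7, 20.6, 15.9 and 16.4 CPM in batches 1 to 4. Drd2+ neurons had 14.1, 13.1, 13.5 and 14.5 CPM and Drd1+ neurons 12.8, 11.9, 12.5 and 12.1 CPM. These 3 clusters did not overlap one another, while every later neighbour overlapped, and 0 counts of Htr1d were found in Chat+ interneurons, where 3 counts would be 3.11 CPM.

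Of the Gq-coupled receptors, Htr2c had the steepest gradient. In the cluster Unknown_2 it reached 10655, 1634, 243 and 13829 CPM in batches 1 to 4, from 33, 9, 2 and 13 nuclei, so the level there, in the cluster led by choroid plexus markers, spans a wide range and rests on few nuclei. Drd2+ neurons had 469, 459.6, 415 and 439 CPM, Sst+ interneurons 439.7, 430.1, 309 and 378 CPM and Drd1+ neurons 335, 351, 309 and 332 CPM. Drd1+ neurons stood above the next clusters with no overlap, those being mural cells (243 CPM), Nxph1+ interneurons (223), Chat+ interneurons (208) and endothelium (183). The second Drd1+ cluster held 40.2 ± 10.3 CPM, and its range lay below those of the 10 clusters before it. Oligodendrocytes (5.70 CPM), astrocytes (6.19) and macrophages (7.74) were among the lowest. Htr2a, whose product is the cortical target of hallucinogens, was highest in the second Slc17a7+ cluster of excitatory neurons at 57.2, 83.8, 31.9 and 61.99 CPM in batches 1 to 4. Drd2+ neurons (40.3 ± 1.01 CPM), Drd1+ neurons (36.9 ± 2.90 CPM) and the first Slc17a7+ cluster (29.2 ± 15.1 CPM) followed with overlapping ranges. In Sst+ interneurons 1 count of Htr2a was found, at a mean of 1.09 CPM.

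The Gs-coupled Htr4 was highest in Drd2+ neurons, 173, 178, 158 and 183 CPM in batches 1 to 4, and next in the second Drd1+ cluster, 123, 125, 127 and 124 CPM. Both stood apart from each other and from the rest by their ranges. Drd1+ neurons came seventh with 30.5, 35.01, 30.2 and 29.6 CPM, after mural cells (69.95 CPM), Nxph1+ interneurons (51.7), endothelium (46.01) and ependyma (39.6), whose neighbours overlapped. Chat+ and Sst+ interneurons were low, with 2.99 and 4.39 CPM. Htr7 was highest in Nxph1+ interneurons, 51.01, 54.8, 17.7 and 29.1 CPM, and in Chat+ interneurons, 21.7, 18.2, 33.7 and 19.6 CPM, with overlapping ranges. Chat+ interneurons stood above the first Slc17a7+ cluster (8.92 CPM) and Drd2+ neurons (8.72 CPM) without overlap. In Drd1+ neurons, Htr7 had 0.411 ± 0.163 CPM from 42 counts, overlapping oligodendrocytes at 0.366 ± 0.0898 CPM, and no count was found in endothelium, mural cells, the Polydendrocyte/Oligodendrocyte cluster or Unknown_2. Htr6, known for its receptor's place on primary cilia, was low throughout: 6.14 ± 0.552 CPM in Drd1+ neurons, 5.83 ± 1.05 in the second Drd1+ cluster and 5.07 ± 0.499 in Drd2+ neurons, and each neighbour in its order overlapped the next.

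Mural cells, endothelium and ependyma, which held Htr1b, Htr2c and Htr4, also held markers of projection neurons. The 5 projection neuron markers Ppp1r1b, Rgs9, Pde10a, Bcl11b and Foxp1 summed to 5518 CPM in mural cells, 3214 CPM in endothelium and 2946 CPM in ependyma, beside 6833 CPM in Drd1+ neurons, 7662 CPM in Drd2+ neurons and 775 CPM in oligodendrocytes. Fibroblasts had a marker sum of 2474 CPM, near that of ependyma. Of 132 fibroblast nuclei, 1 held a UMI of Htr2c, 1 of Htr4 and 3 of Htr1b, against 46, 16 and 10 of 346 ependymal nuclei. The shares were lower in fibroblasts for Htr2c (0.758% against 13.3%) and Htr4 (0.758% against 4.62%). That of Htr1b was similar (2.27% against 2.89%). These shares were not thinned, and median depth was 1644 UMIs in fibroblasts and 2461 in ependyma. The part of projection neuron RNA in the receptor levels was not tested. The levels in mural cells, endothelium and ependyma are not read as expression in vascular or ependymal cells.

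**Figure D1:**
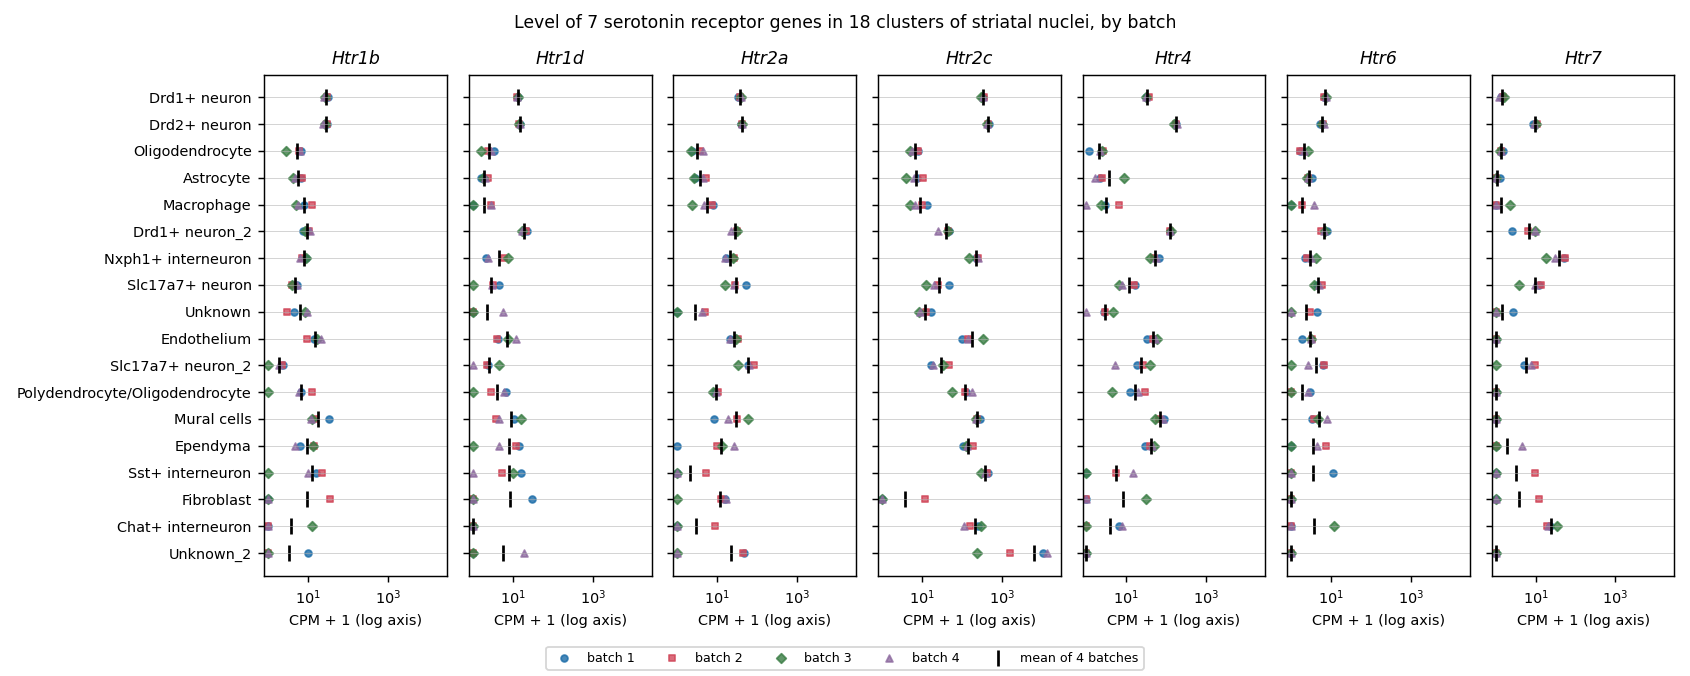
Level of each serotonin receptor gene in the 18 clusters, 1 panel per gene, as CPM + 1 on a log axis. Each point is 1 batch (a pool of 8 mice) and the bar marks the mean of 4 batches. Htr4 is highest in Drd2+ neurons (173 CPM) and the second Drd1+ cluster (125 CPM), Htr7 in Nxph1+ (38.2 CPM) and Chat+ interneurons (23.3 CPM), and Htr2c in Unknown_2, whose batches lie far apart.

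Shares of nuclei with a UMI depend on depth, so each nucleus was thinned to 1000 UMIs. Htr2c was then detected in 33.2% of Drd2+ neurons and 25.9% of Drd1+ neurons, beside 0.514% of oligodendrocytes. Without thinning the shares were 79.5%, 71.9% and 0.995%, at median depths of 5953, 6505 and 1640 UMIs. Htr4 was detected in 13.9% of thinned Drd2+ nuclei, 2.37% of Drd1+ nuclei and 0.0993% of oligodendrocytes, and in 44.04%, 10.1% and 0.174% without thinning. Both genes were thus far above the oligodendrocyte share in both neuron clusters. Htr7 was found in 2.97% of thinned Nxph1+ interneurons and 0.0451% of oligodendrocytes, and its share in Drd1+ neurons, 0.0325%, was no higher than that background. The unthinned shares of Htr7 were 12.8%, 0.0663% and 0.227%.

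To compare clusters on paired libraries, the counts of each mouse were summed per cluster, and clusters were compared within mice. The p-values therefore reflect how the difference within mice varied from mouse to mouse. CPM are scaled within a comparison, so they shift slightly from one to the next. Against Drd1+ neurons, Drd2+ neurons were higher for Htr7, Htr4, Htr2c and Htr1d and lower for Htr6, 5 of 7 members called at an adjusted p under 0.05, where 31.5% of all genes tested were called (edgeR quasi-likelihood test, Benjamini-Hochberg adjustment, 32 mice). A gene was tested when enough libraries reached a count minimum, which it can reach in 1 cluster alone, and a call of such a gene is partly fixed by this minimum. Here Htr7 reached it through Drd2+ neurons (29 of 32 libraries, against 0 in Drd1+ neurons) and Htr6 through Drd1+ neurons (31, against 25). Of the 5 members that reached it in both clusters, 3 were called. Htr4 ranged over 77.7 to 388 CPM (median 149) in Drd2+ libraries and 4.10 to 103 CPM (median 20.5) in Drd1+ libraries of the same mice. All 32 mice were higher in Drd2+ neurons, with a log2 difference of 2.54 ± 0.11 (SE, adjusted p = 1.42e-19), although 1 Drd1+ library of Htr4 exceeded the lowest Drd2+ library. Htr7 ranged over 1.78 to 16.2 CPM (median 8.45) and 0 to 1.28 CPM (median 0), with 17 Drd1+ libraries at 0, and was higher in Drd2+ neurons in 32 of 32 mice. Since the Drd1+ level was that of the oligodendrocyte background, no fold is given for Htr7. Htr2c was 248 to 645 CPM (median 447) and 194 to 436 CPM (median 325), a smaller difference of 0.46 ± 0.0184 that was positive in 32 of 32 mice (adjusted p = 1.89e-39).

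The other members differed little between the 2 main clusters. Htr1d differed by 0.17 ± 0.0623 on the log2 scale, positive in 21 of 32 mice (adjusted p = 0.0241), and this call was lost with DESeq2 (0.076), without batch 2 (0.051) or 4 (0.186), when genes of low counts were kept (0.0696), with nuclei of extreme UMI totals left out (0.0535) and with Drd1+ nuclei holding a UMI of the Drd2+ markers left out (0.0665, with a difference of 0.18). Htr6 differed by -0.26 ± 0.0934, negative in 25 of 32 mice (adjusted p = 0.0259), a call lost with DESeq2 (0.0609), without batch 1 (0.153) and without batch 3 (0.0938). The calls of both were also lost without the mouse as a block (0.391 and 0.0798). Htr1b (-0.02 ± 0.0458, adjusted p = 0.854) and Htr2a (0.14 ± 0.0643, adjusted p = 0.103) did not pass the test, though Htr2a did without batch 4 (0.0133).

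The second Drd1+ cluster differed from the main Drd1+ cluster in every member tested, 5 of 5, where 42.5% of all genes were called. Htr4, Htr1d and Htr2c reached the count minimum in both clusters, and Htr1b (11 of 32 libraries of the second cluster) and Htr2a (25 of 32) only through Drd1+ neurons. It had more Htr4 and Htr1d and less Htr2c, Htr1b and Htr2a. Htr2c ranged over 8.42 to 133 CPM (median 22.7) in its libraries against 204 to 457 CPM (median 340.1) in Drd1+ libraries, and the 2 sets of 32 libraries did not overlap. The log2 difference of Htr2c was -3.13 ± 0.16 (adjusted p = 1.44e-17). Htr4 had 55.3 to 279.8 CPM (median 123) there against 4.29 to 107 CPM (median 21.5), higher in 32 of 32 mice with a log2 difference of 2.18 ± 0.20 (adjusted p = 5.37e-11). Markers of Drd2+ neurons, where Htr4 was highest, were also higher there, with a summed level of 359 CPM against 135 in Drd1+ neurons, and their part in the Htr4 difference was not tested. Htr1b was lower in 31 of 32 mice, with a median of 7.59 against 26.9 CPM and 61 counts in all, while Htr1d was higher in 24 (0.56 ± 0.15, adjusted p = 0.00113). Htr2a was lower in 25 of 32 mice (-0.49 ± 0.14, adjusted p = 0.00356), a call lost without batch 4 (0.0846) and without the mouse block (0.0523).

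In Nxph1+ interneurons, 6 of 6 members tested were called against Drd1+ neurons, where 51.2% of all genes were, but only Htr2c and Htr4 reached the count minimum in both clusters. Htr7 reached it through Nxph1+ interneurons alone, and Htr1b, Htr1d and Htr2a through Drd1+ neurons alone, so that the count of 6 is partly fixed by the minimum. Htr7 was 0 to 100.3 CPM (median 25.3) there against 0 to 1.42 CPM (median 0) in Drd1+ libraries, higher in 30 mice and equal at 0 in the other two. No fold is given for Htr7 here either. Htr4 was higher in 22 of 32 mice (0.71 ± 0.21, adjusted p = 0.00557), a call lost when genes of low counts were kept (0.0731) and without the mouse block (0.0828). The remaining 4 were lower, with log2 differences of -1.02 ± 0.12 for Htr2c (lower in 32 of 32 mice) and -1.11 ± 0.17 for Htr2a (28 mice), the latter with 24 of 32 Nxph1+ libraries at the minimum. Htr1b had 37 counts in all in Nxph1+ interneurons, with 16 of 32 libraries at 0 and a median of 2.19 CPM against 28.5 in Drd1+ neurons. Htr1d had 18 counts, with 19 libraries at 0 and a median of 0 against 12.6 CPM, and no fold is given for either. In the first Slc17a7+ cluster, compared in 20 mice, 4 of 5 members tested were called and all 4 were lower than in Drd1+ neurons, where 52.8% of all genes were called. All 4 reached the count minimum through Drd1+ neurons alone, so that the count of 4 is partly fixed by the minimum. Htr2c (16 of 20 Slc17a7+ libraries at the minimum) had a median of 22.3 against 338 CPM, and Htr4 (11 of 20) one of 7.58 against 25.5 CPM. Htr1b had 28 counts in that cluster with 8 of 20 libraries at 0, and Htr1d 16 counts with 11 at 0. Htr2a, the 1 member at the minimum in both clusters, differed by -0.46 ± 0.26 with an adjusted p of 0.143. That last comparison passed with DESeq2 (0.0158) and without batch 1 (0.0063). Chat+ interneurons could not be compared in this way, since too few mice had enough of these nuclei.

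Strain differences were tested per cluster over all 8 strains, with batch in the model. In Drd1+ neurons the strain term was called for 5 of 6 members tested, where 61.7% of all 13431 genes tested were called, so that a call there is common. In Drd2+ neurons it was called for 6 of 7, beside 55.9% of 12799 genes. In the second Drd1+ cluster 3 of 3 members tested were called (Htr2a, Htr4 and Htr2c), beside 17.3% of genes. For strain tests the count minimum had to be reached only in as many libraries as 1 strain has mice. High mice of 1 strain could thus admit a gene, and a call of such a gene is partly fixed by the minimum. Median counts per mouse in that cluster were 5 for Htr2a, 6 for Htr2c and 27 for Htr4. None passed in Nxph1+ interneurons (0 of 1, 1.53% of genes), endothelium (0 of 2, 3.23%) and the Polydendrocyte/Oligodendrocyte cluster (0 of 1, 1.24%). The tests in those 3 clusters were of Htr2c (adjusted p = 0.743, 0.0901 and 0.614) and, in endothelium, of Htr4 (0.362). At an unadjusted p under 0.05, 1 of these 4 tests passed, and DESeq2 called 1 of them. In oligodendrocytes, astrocytes and macrophages no member had enough counts to be tested.

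Each strain was also set against the mean of the other 7, and these contrasts share their mice. In Drd1+ neurons, members called of 6 tested and the share of all genes called were 1 and 12.3% for 129S1/SvImJ, 1 and 17.2% for A/J, 1 and 13.9% for C57BL/6J, 2 and 32.8% for CAST/EiJ, 2 and 15.9% for NOD/ShiLtJ, 3 and 19.7% for NZO/H1LtJ, 3 and 34.3% for PWK/PhJ, and 2 and 17.0% for WSB/EiJ. In Drd2+ neurons, of 7 tested, they were 1 and 11.1% for 129S1/SvImJ, 1 and 15.2% for A/J, 1 and 11.1% for C57BL/6J, 2 and 28.1% for CAST/EiJ, 2 and 12.1% for NOD/ShiLtJ, 3 and 18.5% for NZO/H1LtJ, 3 and 30.3% for PWK/PhJ, and 3 and 15.3% for WSB/EiJ. Htr4 was called in 6 strains in Drd1+ neurons and 7 in Drd2+ neurons, more often than any other member. Strains named below as highest or lowest were picked by these same values. A lack of overlap between their mice is therefore a description and not a test. Htr2c in the Polydendrocyte/Oligodendrocyte cluster had extreme strains without overlap too, though its strain term did not pass (adjusted p = 0.614, edgeR).

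Among the members, Htr4 had the widest spread of strain means in both main clusters. Over the 32 mice it ranged from 4.13 to 103 CPM (median 20.6) in Drd1+ neurons and from 76.9 to 384 CPM (median 147) in Drd2+ neurons. In Drd2+ neurons PWK/PhJ mice were highest at 384, 329.7, 295 and 283 CPM in batches 1 to 4, and NOD/ShiLtJ mice had 223, 271, 234 and 295 CPM. A/J mice followed with 196, 209, 178 and 177 CPM. The lowest strains were C57BL/6J with 84.97, 96.1, 96.7 and 113 CPM and 129S1/SvImJ with 114, 76.9, 87.7 and 121 CPM, and no mouse of these 2 strains reached the lowest PWK/PhJ or NOD/ShiLtJ mouse. In between, NZO/H1LtJ averaged 125 ± 15.1 CPM, WSB/EiJ 128 ± 18.02 and CAST/EiJ 162 ± 25.4 (SD, n = 4 mice). The highest strain mean was 3.30 times the lowest. In edgeR's quasi-likelihood test the strain term had an adjusted p of 4.45e-14. Against the mean of the other strains, Htr4 differed in Drd2+ neurons by 1.17 ± 0.0814 (log2 ± SE) in PWK/PhJ, 0.79 ± 0.0840 in NOD/ShiLtJ, -0.81 ± 0.10 in C57BL/6J and -0.76 ± 0.0986 in 129S1/SvImJ, with adjusted p from 4.37e-13 to 1.26e-06. The other 3 calls were lost when a batch, and so 1 mouse of every strain, was left out. A/J (0.30 ± 0.0860) then differed by 0.24 without batch 2 (adjusted p = 0.102) and 0.29 without batch 3 (0.129). Without batch 3, NZO/H1LtJ (-0.39 ± 0.0949) differed by -0.41 (0.0548) and WSB/EiJ (-0.35 ± 0.0936) by -0.32 (0.129).

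Drd1+ neurons gave Htr4 a similar set of high strains at a much lower level. NOD/ShiLtJ mice had 61.9, 52.9, 103 and 67.9 CPM, PWK/PhJ mice 67.6, 38.1, 38.3 and 54.7 CPM and A/J mice 58.4, 63.2, 46.4 and 28.5 CPM in batches 1 to 4. The lowest were NZO/H1LtJ with 13.9, 11.1, 10.6 and 4.13 CPM, C57BL/6J with 7.07, 14.4, 14.8 and 9.94 CPM and 129S1/SvImJ with 11.2, 18.04, 10.3 and 14.8 CPM. Every mouse of the 3 high strains lay above every mouse of the 3 low ones. WSB/EiJ (24.4 ± 6.24 CPM) and CAST/EiJ (16.4 ± 7.43 CPM) were between them (SD, n = 4), and the highest strain mean was 7.20 times the lowest. The strain term of Htr4 had an adjusted p of 2.53e-07 with edgeR. Against the other strains the log2 difference was 1.77 ± 0.22 in NOD/ShiLtJ, 1.21 ± 0.22 in PWK/PhJ, 1.20 ± 0.21 in A/J and -1.41 ± 0.32 in NZO/H1LtJ (adjusted p from 3.77e-06 to 0.00278). C57BL/6J (-1.28 ± 0.32, adjusted p = 0.00757) was lost without batch 1 (0.151), and 129S1/SvImJ (-0.95 ± 0.29, adjusted p = 0.0369) without any 1 of the 4 batches (0.0657 to 0.238). In the second Drd1+ cluster, NOD/ShiLtJ was again the highest strain with 196, 250.3, 313 and 171 CPM and WSB/EiJ the lowest with 67.7, 92.6, 66.8 and 84.8 CPM, and these mice did not overlap (strain term adjusted p = 3.89e-04). Drd2+ markers summed there to means of 441 CPM in NOD/ShiLtJ and 452 in PWK/PhJ, beside 333 to 363 in the other 6 strains. In batches 1 to 4 the sums were 345, 306, 740 and 373 CPM in NOD/ShiLtJ, raised by batch 3, and 367, 521, 432 and 488 in PWK/PhJ. The cluster's own markers also had their highest mean in NOD/ShiLtJ (1194 CPM) and lowest in WSB/EiJ (877). Projection neuron markers were lowest in WSB/EiJ (3288 CPM, others 3698 to 4724). PWK/PhJ, with the highest Drd2+ marker sum, had an Htr4 mean of 141 CPM against 232 in NOD/ShiLtJ, and the part of these markers in the difference was not tested.

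Markers of Drd2+ neurons were present in the Drd1+ libraries at levels that differed by strain. Drd2, Adora2a, Penk, Gpr6 and Sp9 summed to strain means of 101 CPM in 129S1/SvImJ, 106 in C57BL/6J, 107 in CAST/EiJ, 112 in NZO/H1LtJ, 121 in WSB/EiJ, 129 in NOD/ShiLtJ, 162 in PWK/PhJ and 219 in A/J. The 3 strains of high Htr4 also had the 3 highest marker sums, but in another order. NOD/ShiLtJ had the highest Htr4 mean (71.4 CPM) and a marker sum close to that of WSB/EiJ. The NOD/ShiLtJ mouse of batch 4 had a marker sum of 98.0 CPM. When the Drd1+ nuclei with any UMI of these 5 genes were left out, an alternative chosen after seeing the data, 8640 nuclei (56.1%) remained. In those, Htr4 had strain means of 57.8 CPM in NOD/ShiLtJ, 62.3 in A/J and 51.6 in PWK/PhJ, against 10.2 in NZO/H1LtJ, 11.9 in C57BL/6J, 11.9 in 129S1/SvImJ, 13.8 in CAST/EiJ and 21.96 in WSB/EiJ. The same 3 strains were the highest with and without these nuclei, and the strain term had an adjusted p of 8.26e-08 without them. The mean share of nuclei left out differed by strain, from 38.3% in CAST/EiJ to 57.5% in A/J. A nucleus can hold RNA of Drd2+ neurons without a UMI of these 5 genes, so the part of such RNA in the Htr4 differences was not tested.

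**Figure D2:**
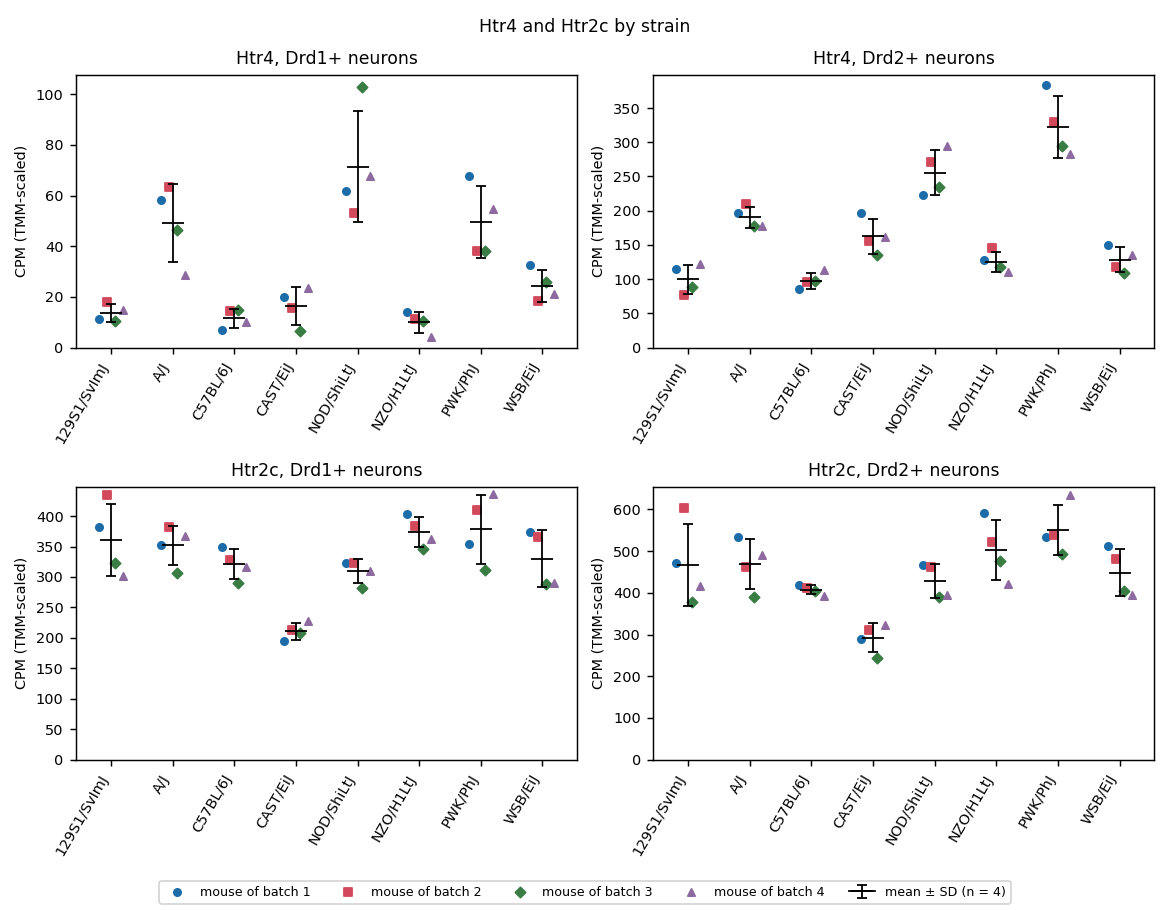
CPM of Htr4 (top) and Htr2c (bottom) in Drd1+ (left) and Drd2+ neurons (right) of each mouse by strain, with the mean and SD of 4 mice. PWK/PhJ and NOD/ShiLtJ are high for Htr4 in both clusters, and all 4 CAST/EiJ mice lie below every other mouse for Htr2c.

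Htr2c was called in the strain term of both main clusters, and CAST/EiJ was the strain apart. CAST/EiJ mice had 195, 214, 209 and 228 CPM in Drd1+ neurons and 289.9, 312, 244 and 323 CPM in Drd2+ neurons in batches 1 to 4. PWK/PhJ mice had 354, 410.4, 312 and 436 CPM and 533, 539.8, 493 and 635 CPM, the highest strain means in both. The 28 mice of the other 7 strains all lay above the highest CAST/EiJ mouse in each cluster, and the highest mean was 1.79 times the lowest in Drd1+ and 1.88 times in Drd2+ neurons. The strain term had adjusted p values of 1.48e-10 and 9.61e-09 (edgeR). CAST/EiJ differed from the other strains by -0.71 ± 0.0660 (log2 ± SE, adjusted p = 4.23e-12) in Drd1+ and -0.67 ± 0.0754 (1.84e-09) in Drd2+ neurons. PWK/PhJ was higher by 0.38 ± 0.0680 in Drd2+ neurons (adjusted p = 2.56e-05) and by 0.25 ± 0.0598 in Drd1+ neurons (9.70e-04), where the difference was 0.16 and the call was lost without batch 4 (0.0561). NZO/H1LtJ was higher by 0.24 ± 0.0599 in Drd1+ neurons (adjusted p = 0.00332) and by 0.22 ± 0.0687 in Drd2+ neurons (0.0186), the latter lost without batch 1 (0.195) or 3 (0.155) and without the batch block (0.096). In the second Drd1+ cluster the strain means of Htr2c ran from 18.2 CPM in C57BL/6J to 96.2 in PWK/PhJ on 292 counts (adjusted p = 0.00237, 0.107 without batch 4 and 0.0781 without the batch block). PWK/PhJ also had the highest sum of Drd2+ markers in that cluster, 452 CPM against 338 in C57BL/6J, and Htr2c was far higher in both main clusters. The part of these markers in the difference was not tested.

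Htr2a, the other Gq-coupled receptor, was highest in WSB/EiJ and lowest in PWK/PhJ. WSB/EiJ mice had 31.9, 51.8, 101 and 77.1 CPM in Drd1+ neurons and 32.4, 46.1, 86.6 and 62.03 CPM in Drd2+ neurons in batches 1 to 4. PWK/PhJ mice had 24.6, 19.4, 30.3 and 10.8 CPM and 21.7, 24.9, 24.7 and 23.5 CPM. These 2 strains, picked as the extremes, did not overlap in either cluster, but the WSB/EiJ mice spread over more than any other strain. The strain term passed in Drd1+ neurons (adjusted p = 0.00345), not without batch 2 (0.072) or 4 (0.13), and in Drd2+ neurons (0.0129), not without batch 4 (0.191). WSB/EiJ differed from the other strains by 0.91 ± 0.20 in Drd1+ (adjusted p = 0.00297; 0.0613 without batch 4) and 0.55 ± 0.18 in Drd2+ neurons (0.0444). The latter call was lost without batch 2, 3 or 4, with differences of 0.67, 0.27 and 0.45 (adjusted p = 0.0772, 0.363 and 0.272). PWK/PhJ differed by -0.88 ± 0.25 in Drd1+ (adjusted p = 0.00978; 0.0876 without batch 2 and 0.14 without batch 4) and -0.82 ± 0.22 in Drd2+ neurons (0.00714). In the second Drd1+ cluster, where Htr2a had 196 counts in all, strain means ran from 7.46 CPM in C57BL/6J to 48.1 in NZO/H1LtJ (adjusted p = 0.00741, and 0.0709 without batch 2).

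Of the Gi/o-coupled genes, Htr1d was highest in CAST/EiJ, with 17.2, 16.2, 18.4 and 20.01 CPM in Drd1+ neurons and 25.3, 23.4, 28.6 and 21.6 CPM in Drd2+ neurons in batches 1 to 4. WSB/EiJ mice had 25.1, 16.3, 17.3 and 11.1 CPM and 25.2, 15.04, 16.6 and 9.83 CPM, and the strains other than these 2 averaged 9.54 to 14.1 CPM. The strain term passed in both clusters (adjusted p = 1.46e-04 and 2.76e-05). CAST/EiJ was higher than the other strains by 0.62 ± 0.15 (log2 ± SE, adjusted p = 9.02e-04) in Drd1+ and 0.97 ± 0.16 (4.06e-06) in Drd2+ neurons. WSB/EiJ was higher by 0.63 ± 0.14 in Drd1+ neurons (adjusted p = 0.00125), but by 0.32 and not past the threshold without batch 1 (0.279). NZO/H1LtJ was lower in Drd2+ neurons (-0.56 ± 0.19, adjusted p = 0.0327), a call lost without batch 1, 2 or 4 (0.0537 to 0.181) and with nuclei of extreme UMI totals left out (0.065).

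Markers of the second Drd1+ cluster, whose own Htr2c was low and Htr1d high, were also raised in CAST/EiJ libraries of the main clusters. Otof, Casz1, Tshz1, Col11a1 and Pcdh8 summed to strain means of 73.7 CPM in CAST/EiJ and 75.5 in NOD/ShiLtJ in Drd1+ neurons, beside 45.5 to 56.7 in the other 6 strains. In Drd2+ neurons the sum was highest in CAST/EiJ at 76.5 CPM, beside 38.4 to 63.95 in the others, and in the second Drd1+ cluster itself it was 1021 CPM. NOD/ShiLtJ, with a marker sum like that of CAST/EiJ in Drd1+ neurons, had means of 309.6 CPM for Htr2c and 10.9 CPM for Htr1d there, against 211 and 17.9 CPM in CAST/EiJ. The part of these markers' RNA in the CAST/EiJ differences was not tested.

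Htr1b was highest in NOD/ShiLtJ, with 37.9, 44.2, 48.3 and 32.2 CPM in Drd1+ neurons and 33.3, 39.1, 33.8 and 28.2 CPM in Drd2+ neurons in batches 1 to 4. NZO/H1LtJ mice had 28.05, 19.99, 16.8 and 20.6 CPM and 30.8, 21.4, 20.8 and 18.3 CPM. The 2 strains, again picked as the extremes, did not overlap in Drd1+ neurons and overlapped in Drd2+ neurons. The strain term passed in Drd1+ neurons (adjusted p = 2.15e-05) and narrowly in Drd2+ neurons (0.0488), where it was lost with DESeq2 (0.0913), with its size factors (0.0502), with nuclei of extreme UMI totals left out (0.058), without batch 2, 3 or 4 (0.0623 to 0.341) and without the batch block (0.244). NOD/ShiLtJ was higher than the other strains by 0.66 ± 0.11 in Drd1+ neurons (adjusted p = 1.13e-05). In Drd2+ neurons it was higher by 0.39 ± 0.12 (0.0228), a call lost without batch 2, 3 or 4 (0.0798 to 0.151) and without the batch block (0.117). NZO/H1LtJ was lower in Drd1+ neurons (log2 difference -0.39 ± 0.12, adjusted p = 0.0154), and this was lost without batch 2 (0.106) or 3 (0.111) and without the batch block (0.0749).

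The 2 remaining Gs-coupled genes were thinly counted. Htr6 had 4 to 37 counts per mouse in Drd2+ neurons, where strain means ran from 3.90 CPM in 129S1/SvImJ to 7.31 CPM in WSB/EiJ, whose mice had 5.84, 8.69, 8.28 and 6.43 CPM. Its strain term passed in Drd2+ neurons (adjusted p = 0.0191) but not with DESeq2 (0.0634) and not when any 1 batch was left out (0.0655 to 0.157). WSB/EiJ was higher by 0.64 ± 0.19 (0.0155), not without batch 2 (0.168) or 3 (0.0612). In Drd1+ neurons, strain means of Htr6 lay between 5.10 and 7.42 CPM and the strain term did not pass (0.739). Htr7 had 4 to 59 counts per mouse in Drd2+ neurons, with strain means from 5.98 CPM in A/J to 10.8 CPM in PWK/PhJ, and did not pass (0.582). It passed without batch 1 (0.042) and when genes of low counts were kept (0.0348).

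**Figure D3:**
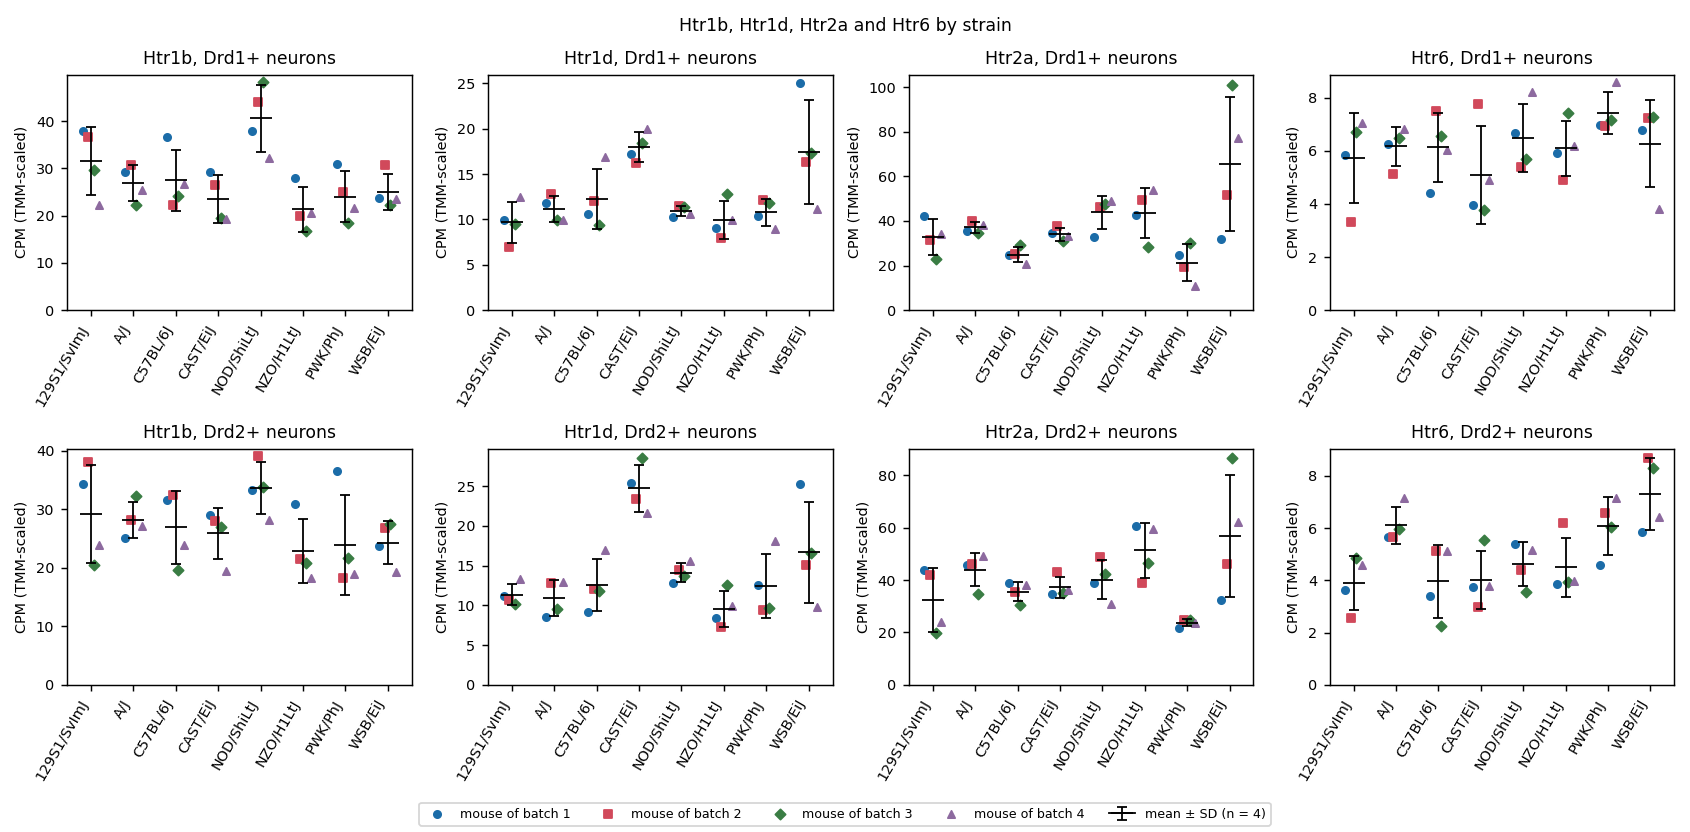
CPM of Htr1b, Htr1d, Htr2a and Htr6 in Drd1+ (top) and Drd2+ neurons (bottom) of each mouse by strain, with the mean and SD of 4 mice. In both clusters NOD/ShiLtJ has the highest mean of Htr1b, CAST/EiJ of Htr1d and WSB/EiJ of Htr2a, while that of Htr6 is in PWK/PhJ in Drd1+ (7.42 CPM) and WSB/EiJ in Drd2+ neurons (7.31 CPM).

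Whether strain differences themselves differed between the 2 main clusters was tested as an interaction with the mouse as a block. Htr4 was called (adjusted p = 0.00236), 1 of 7 members, where 4.58% of all 13791 genes tested were called. The Drd2+ minus Drd1+ difference of Htr4 within mice was positive in every strain. It was smallest in NOD/ShiLtJ at 1.88 ± 0.50 and A/J at 2.02 ± 0.42 (log2, mean ± SD, n = 4), and largest in NZO/H1LtJ at 3.69 ± 0.60 and CAST/EiJ at 3.40 ± 0.63. The other strains lay between, with WSB/EiJ at 2.41 ± 0.31, PWK/PhJ at 2.73 ± 0.35, 129S1/SvImJ at 2.85 ± 0.54 and C57BL/6J at 3.08 ± 0.45. Mice of neighbouring strains overlapped in this order. The call was lost without batch 1 (0.141) or batch 3 (0.0606) and held when Drd1+ nuclei with a Drd2+ marker UMI were left out (0.000421). The part of RNA from Drd2+ neurons in the interaction was not tested. Among the others, Htr2a (0.189) passed without batch 2 (0.0303) and when genes of low counts were kept (8.04e-04). Htr7 (0.202), Htr2c (0.513), Htr1d (0.637), Htr6 (0.726) and Htr1b (0.91) did not pass. For Htr2c the strain means of the within-mouse difference ran from 0.37 to 0.57.

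**Figure D4:**
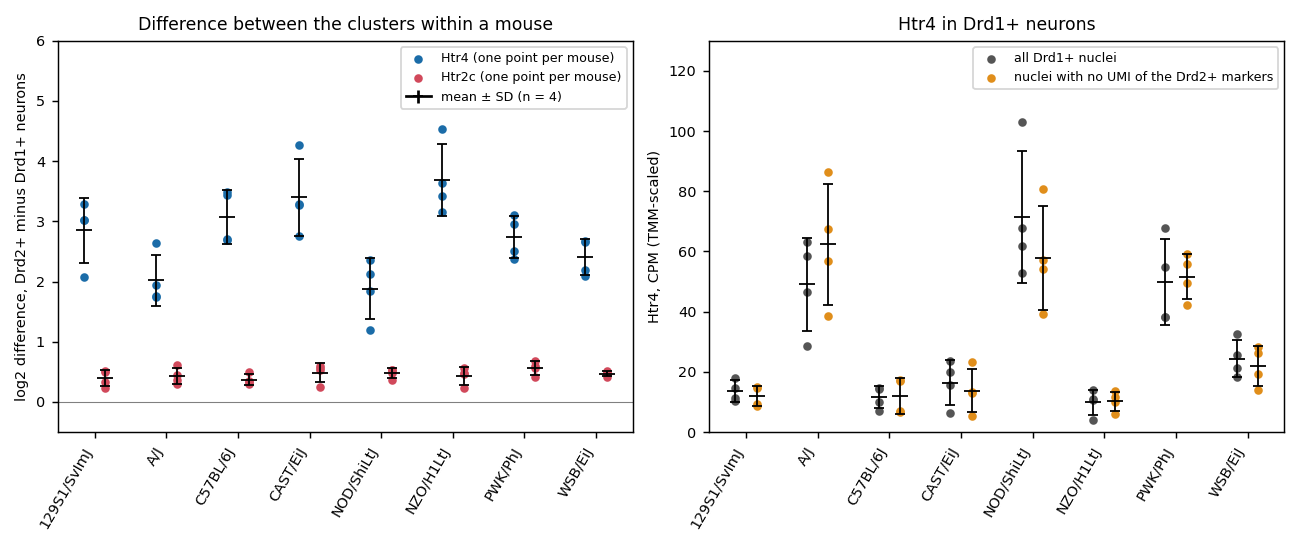
Left: log2 difference of Drd2+ minus Drd1+ neurons within each mouse, by strain, for Htr4 and Htr2c. Right: CPM of Htr4 in all Drd1+ nuclei and in the Drd1+ nuclei without a UMI of the 5 Drd2+ markers, per mouse with strain means. The Htr4 difference is above 0 in all 32 mice, and NOD/ShiLtJ, A/J and PWK/PhJ have the highest means in both sets of Drd1+ nuclei.

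Of the 7 other serotonin receptor genes listed (Htr1a, Htr1f, Htr2b, Htr3a, Htr3b, Htr5a and Htr5b), 2 were counted enough for the strain term in Drd1+ neurons and both were called, where 61.7% of all genes were, and 1 of 2 was called in Drd2+ neurons, where 55.9% were. Htr1f, coupled to Gi/o like Htr1b and Htr1d, ranged over 98.1 to 249.5 CPM in Drd1+ and 14.2 to 82.9 CPM in Drd2+ neurons. CAST/EiJ had the highest mean in both clusters, with 239, 249.5, 219 and 249 CPM in Drd1+ and 76.8, 82.9, 56.4 and 80.6 CPM in Drd2+ neurons, and it also had the highest means of Htr1d. Its cluster difference was opposite to that of Htr4: it was lower in Drd2+ than in Drd1+ neurons, with a log2 difference of -1.79 ± 0.0771 (SE). Its interaction of strain and cluster passed as well (adjusted p = 0.00175). Over the 18 clusters Htr1f was highest in the first Slc17a7+ cluster at 432 ± 38.4 CPM.

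Of the genes of serotonin handling, Tph2 and Slc6a4 were nearly silent in these nuclei, while Ddc, the second enzyme of serotonin synthesis and also one of dopamine synthesis, was highest in endothelium at 113 ± 45.7 CPM. Outside Unknown_2, which held 1 count of each, the highest level of Tph2, the brain enzyme of serotonin synthesis, was 1.69 CPM (astrocytes), and that of Slc6a4, the serotonin transporter, 0.866 CPM (the Polydendrocyte/Oligodendrocyte cluster). The breakdown enzyme gene Maoa was highest in endothelium at 166 ± 58.5 CPM, and Maob, measured in astrocytes at 62.6 ± 3.94 CPM, was called for strain in Drd1+ neurons (1 of 3 tested of 7 listed, beside 61.7% of all genes). Maob was also called for strain in astrocytes, with an adjusted p of 2.80e-05 against 0.00772 in Drd1+ neurons (edgeR). In Drd2+ neurons, where 55.9% of all genes were called, 3 of 3 tested were: Ddc (adjusted p = 0.00103), Slc18a2 (0.00114) and Maoa (0.0188). Of 19 listed receptor partners and G protein genes, the strain term called 14 of 18 tested in Drd1+ neurons and 11 of 18 in Drd2+ neurons, beside the shares of all genes given above. The largest F statistics were those of Adarb2, Mpdz, Plcb4 and Gnaq in Drd1+ neurons and of Mpdz, Arrb1, Adcy5 and Adarb2 in Drd2+ neurons. Mpdz encodes a scaffold that binds the Htr2c receptor, and Gnaq the Gq protein. Between the clusters, where 31.5% of all genes were called, 9 of these 18 differed, 5 higher and 4 lower in Drd2+ neurons, with a median log2 difference of 0.0010 beside 0.0030 over all genes. Adarb2, a catalytically inactive relative of the RNA-editing enzymes, was lower (log2 difference -4.15 ± 0.11), as was Gnai1 (-1.12 ± 0.0528), while Gnas, the gene of the Gs protein, was higher (1.08 ± 0.0387), as was Gnao1 (0.35 ± 0.0172). In the interaction, 1 of 18 partners was called, Gnai1, beside 4.58% of all genes.

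Across the 18 clusters, the genes whose log2(CPM + 1) followed each receptor most closely among 15711 genes were found by Pearson's r, which describes levels that share libraries and depth. Ptpn5, a striatal phosphatase gene, was closest to Htr4 (r = 0.92), followed by Gm27226 (0.90) and Elmod1 (0.89). Vat1l (0.91), Myo5b (0.87) and Selenoi (0.86) were closest to Htr2c, all 3 highest in Unknown_2. For Htr7 these were Glra3, a glycine receptor subunit gene (0.88), Zranb2 (0.82) and Spx (0.81). For Htr2a they were Gm14636 (0.90), Itpka (0.89) and Rin1 (0.89), and for Htr6 Abcb9 (0.94), Wnt2 (0.91) and 2810455O05Rik (0.90). Ankrd63 (0.89), Rasgrp2 (0.89) and Mhrt (0.87) were nearest to Htr1b, and 4930525C09Rik (0.90), Rundc1 (0.90) and Gm12992 (0.88) to Htr1d. These lists of 3 shared no gene.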

How the data were processed

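Nuclear RNA of striatum was measured with 10x Multiome in 32 mice of 8 strains. The authors' deposited matrices hold raw UMI counts per gene and barcode with no normalization. Cell Ranger ARC 2.0.0, bcl2fastq 2.20.0.422 and the builds GRCm38 and mm10 are named, without roles, in the submitters' processing notes. All strains were counted on a reference derived from the C57BL/6 strain, and reads of other strains that map less well to it would lower their counts. Other deposited fields are categories and positions rather than scores: the authors' table gives each barcode its batch, strain, quality outcome and cluster, and their index gives positions of accessible regions. The annotation was used unchanged, with no further filter and no doublet caller. The matrix of accessible regions was not analysed here.

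Counts were summed per mouse (batch and strain) and cluster, in libraries of at least 10 nuclei, and strain was tested in the 9 clusters where each strain had at least 3 such mice. Genes were filtered with filterByExpr, libraries were scaled by TMM, and robust quasi-likelihood models were fitted in edgeR 4.0.16 (R 4.3.3), with p-values adjusted by Benjamini-Hochberg over all genes tested in a comparison and calls at 0.05. Strain fits had batch as a block, because each batch pooled 1 mouse of every strain per the labels. Fits between clusters had the mouse as a block, because both libraries came from 1 animal. CPM of mice are counts per 1e+06 of the TMM-scaled library. CPM of clusters are unscaled, from all nuclei of a batch. Within-mouse log2 differences used a prior count of 2. Correlations and shares came from Python 3.11.15 with numpy 2.4.6, pandas 2.3.3 and scipy 1.17.1. The fits were tested on simulated data.

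The members and the gene lists were chosen with earlier results of these data known. All members were named wherever tested, and of each other list at most 4 called genes of the largest F statistic. For the genes most like a member, the rule took the 3 with the highest r over clusters among genes of at least 10 CPM in a cluster. Alternatives were DESeq2 1.42.0, its size factors, no expression filter, libraries of at least 20 nuclei, no block, nuclei of extreme UMI totals left out (outside the percentiles 5 to 95 of their cluster and batch), each batch left out in turn, other thinning depths, means of single mice, and, added after seeing the data, Drd1+ nuclei without Drd2+ marker UMIs. Intervals and floors cover counting error only.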

Additional observations from a re-analysis of the deposited data

Results flagged for a closer look

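Within 125 groups of 4 values tested for a value far from the others, 6 had one, near the share of about 1 in 20 that chance gives. In Drd1+ neurons these were Htr1b in the WSB/EiJ mouse of batch 2 (30.8 CPM, others 22.4 to 23.7), Htr2a in the NOD/ShiLtJ mouse of batch 1 (33.0 CPM, others 46.2 to 48.7), and Htr6 in the batch 4 mice of PWK/PhJ (8.61 CPM, others 6.93 to 7.16) and WSB/EiJ (3.82 CPM, others 6.79 to 7.27). In Drd2+ neurons it was Htr6 in the NZO/H1LtJ mouse of batch 2 (6.20 CPM, others 3.85 to 3.96). Among cluster levels it was Htr1b in mural cells of batch 1 (31.6 CPM, other batches 10.6 to 13.8), a level from 24 counts over all batches.

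Strain effects differed between Drd1+ and Drd2+ neurons for 3 genes, 1 of 7 members, 1 of 2 other receptors and 1 of 18 partners tested (none of the 4 genes of serotonin handling tested, with unadjusted p from 0.228 to 0.826), by edgeR's test of the interaction over 32 mice, which called 4.58% of all genes. They were Htr1f (adjusted p = 0.00175), Htr4 (0.00236) and Gnai1 (0.0287), and the call of Htr4 was lost without batch 1 (0.141) or batch 3 (0.0606), while those of Htr1f and Gnai1 were not examined under the alternatives.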

How the results depend on the processing

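Of 66 calls on members, 40 held in every alternative run and 26 were lost in 1 or more. Calls of the strain term and the interaction have no direction, and none of the other calls changed theirs. Leaving out 1 batch, which also leaves fewer mice, weakened the test of 48 results, strengthened 4 and left 272 on their side of the threshold, counted over the 4 batches. Member calls then ranged from 0 to 2 in the interaction (1 with all batches), 3 to 6 in the strain term of Drd2+ neurons (6) and 9 to 16 over the strain contrasts of Drd2+ neurons (16). Without the replicate block of the mouse, 3 members in place of 5 were called between Drd2+ and Drd1+ neurons, and DESeq2 also called 3. With genes of low counts kept, 2 members were called in the interaction, 2 in the strain term of endothelium (0 in the reported fit) and 1 in that of the Polydendrocyte/Oligodendrocyte cluster (0). In endothelium 1 was called with DESeq2 and 1 with nuclei of extreme UMI totals left out, which also lowered Htr4 in Drd1+ neurons from 31.3 to 27.7 CPM. The cause of these changes was not tested.

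Shares of nuclei moved with the thinning depth by construction. Without thinning and at 500 UMIs, Htr2c was found in 71.9% and 14.5% of Drd1+ neurons, 79.5% and 19.3% of Drd2+ neurons and 0.995% and 0.325% of oligodendrocytes. Htr4 was found in 10.1% and 1.23% of Drd1+ neurons, 44.04% and 7.63% of Drd2+ neurons and, at 500 UMIs, 0.0417% of oligodendrocytes, and Htr7 in 12.8% and 1.65% of Nxph1+ interneurons. Counts are few for Htr6 and Htr7, with as few as 4 per mouse in Drd2+ neurons. They are also few for every member in oligodendrocytes, astrocytes and macrophages, where none could be tested. The strain term of the Polydendrocyte/Oligodendrocyte cluster at 20 nuclei per library and the comparison of Chat+ interneurons could not be run with the mice that remained.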
